A study of Arabidopsis thaliana and Arabidopsis lyrata subsp. lyrata with 12 samples.

Results

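The pericentromeric loci of *Arabidopsis thaliana* are the entries of the gene table that lie in the gene-poor blocks on both sides of each centromere. They were chosen by position alone, from the chromosome in the locus ID and the start coordinate in TAIR10: 11.5 to 17.7 Mb on chromosome 1, 1.1 to 7.2 Mb on chromosome 2, 10.3 to 17.3 Mb on chromosome 3, 1.5 to 6.3 Mb on chromosome 4 and 9.0 to 16.0 Mb on chromosome 5. This gave 6667 of the 32678 loci in the table, and 25614 other nuclear loci served for comparison. A total of 118 loci inside the windows were left out, namely the copy of mitochondrial DNA on chromosome 2 and the *APUM9* gene, and 279 organelle loci were kept out of both sets. By chromosome, there were 1206, 1296, 1547, 1059 and 1559 pericentromeric loci. The RefSeq annotation lists 3102 of them as protein coding, 3315 (49.7%) as pseudogene and 124 as noncoding RNA, and 126 had no match. Among the other nuclear loci, 2.22% are listed as pseudogene. RefSeq files transposable element (TE) genes of this species under pseudogene, so that the word covers TE genes below.

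Pericentromeres are packed as heterochromatin for most of their length. Their TEs carry DNA methylation and the histone mark H3K9me2, which keep transcription low, and chromatin remodellers and small RNAs maintain this state. *Athila* elements, a group of *Gypsy* long terminal repeat (LTR) retrotransposons, and LINE retrotransposons without LTRs are common there, while the *Copia* element *ONSEN* is known for its transcription under heat. Protein-coding genes become frequent towards the edges of the windows.

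RNA came from rosette leaves of Col-0 plants grown on soil for 3 weeks to the 5-leaf stage. Control plants stayed at 21 °C by day, heat stress (HS) plants spent 6 h at 37 °C, and recovery plants were returned to control conditions for 48 h after the same treatment. Each condition has 2 libraries, and no mutant or transgene is involved. Controls were taken directly after the stress and serve both comparisons, so recovery cannot be told apart from 48 h of further growth. In leaf RNA, fewer cells of a type and less RNA per cell cannot be told apart either.

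The windows around 4 annotated starts are printed because they show the classes of loci that the results turn on: the small heat shock protein gene with the most HS reads, a TE gene that rose without a repeated sequence, and a pair of near-identical *Athila* copies. Each runs from 250 bases before to 50 bases after the RefSeq start in TAIR10.1 and reads 5′ to 3′ on the strand of the locus. Capitals mark GAANNTTC or TTCNNGAA, which are pairs of inverted GAA units of the heat shock element, the DNA motif that heat shock factors recognise. The HSP17.4 window lies at chr3:16984818-16985117 (minus strand), that of AT1G36630 at chr1:13847576-13847875 (minus), that of AT5G31719 at chr5:11692171-11692470 (minus) and that of AT5G32107 at chr5:11816414-11816713 (minus).
HSP17.4: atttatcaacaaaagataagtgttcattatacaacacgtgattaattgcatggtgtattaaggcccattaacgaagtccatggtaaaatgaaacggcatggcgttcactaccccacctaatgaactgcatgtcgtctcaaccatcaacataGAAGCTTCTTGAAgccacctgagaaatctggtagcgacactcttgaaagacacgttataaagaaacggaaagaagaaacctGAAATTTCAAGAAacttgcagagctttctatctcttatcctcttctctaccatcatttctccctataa
AT1G36630: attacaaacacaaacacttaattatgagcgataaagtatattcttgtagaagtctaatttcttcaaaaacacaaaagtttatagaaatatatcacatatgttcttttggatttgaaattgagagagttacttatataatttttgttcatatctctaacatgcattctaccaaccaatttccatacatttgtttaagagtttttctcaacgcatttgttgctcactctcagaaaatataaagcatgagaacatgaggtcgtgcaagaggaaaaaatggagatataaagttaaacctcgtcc
AT5G31719: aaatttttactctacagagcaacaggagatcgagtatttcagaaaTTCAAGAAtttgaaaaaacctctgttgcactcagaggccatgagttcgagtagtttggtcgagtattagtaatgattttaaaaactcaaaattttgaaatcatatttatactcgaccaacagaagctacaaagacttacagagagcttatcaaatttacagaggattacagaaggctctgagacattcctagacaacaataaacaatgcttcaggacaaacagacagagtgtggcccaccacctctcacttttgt
AT5G32107: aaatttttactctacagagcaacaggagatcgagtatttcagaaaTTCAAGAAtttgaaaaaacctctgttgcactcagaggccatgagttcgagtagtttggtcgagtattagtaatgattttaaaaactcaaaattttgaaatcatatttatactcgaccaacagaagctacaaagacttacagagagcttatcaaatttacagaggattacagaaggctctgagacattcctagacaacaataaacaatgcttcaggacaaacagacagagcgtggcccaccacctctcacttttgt
The HSP17.4 window holds 4 overlapping matches in 2 groups, at -99 and -94 and at -18 and -13 from the start. The AT1G36630 window holds no match. The windows of AT5G31719 and AT5G32107 each hold 1 match at -205 and share 299 of 300 bases, with the single substitution T275C, counted from the 5′ end of the window, first locus first.

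Libraries held 9624503 to 45254555 reads, and the largest was 4.70 times the smallest. Both extremes are HS libraries. The factors from TMM, the scaling of edgeR that balances the bulk of the genes, were 0.711 and 0.672 in HS and 1.12 to 1.26 in the other 4 libraries. Levels are therefore given as CPM, the read count scaled to a library of fixed size, after TMM scaling. With TMM the median log2 fold change after HS over all 18536 loci tested was -0.12, and with plain library totals it was -0.87. The fold changes and CPM below are therefore relative to the TMM centre. Shares of reads use raw counts without TMM scaling, so they stand on another scale than the fold changes. Of the tissue markers, all 4 tested flower and meristem genes rose after HS, with a median log2 fold change of 2.68. Of the leaf genes 3 of 4 rose and 1 fell, and 1 of 2 tested root genes fell. Over all loci tested, 34.9% rose and 39.5% fell. Pollen markers were also chosen, but no values of theirs are given. The part of tissue makeup in the results was not tested.

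Most pericentromeric loci were silent in these leaves. No library held a read of 3947 of them (59.2%), against 17.1% of the other nuclear loci, and among pericentromeric pseudogenes the figure was 2677 of 3315 (80.8%). A read was seen at 2720 pericentromeric loci. Enough reads for the test were present at 1585 (23.8%, against 65.5% elsewhere), comprising 1470 protein-coding loci, 90 pseudogenes and 25 noncoding RNAs. A silent locus in control can enter this set through its HS reads alone, so counts among the tested pseudogenes describe those 90 and not the 3315.

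Thinned to the depth of the smallest library, the pericentromeric loci with at least 1 read numbered 1935 and 1893 in control, 1806 and 1826 in HS, and 1982 and 1970 in recovery. The HS libraries thus lie below the other 4. The same order held for the other nuclear loci, with 19025 and 18595 in control, 18057 and 18041 in HS, and 19109 and 19080 in recovery. Protein-coding loci made up most of the pericentromeric difference, with 1724 and 1668 detected in control and 1575 and 1577 in HS. Pseudogenes detected numbered 171 and 186 in control, 199 and 215 in HS, and 208 and 198 in recovery, so that HS and recovery overlap above control. At a minimum of 5 reads the means were 77.3 in control and 76.7 in HS, and the libraries of both overlap. Loci nearer to the middle than halfway to the border, called inner below, numbered 351 and 345 with a read in control and 373 and 384 in HS, while the outer loci numbered 1584 and 1548 in control and 1433 and 1441 in HS. With windows 1 Mb narrower the difference between HS and control over all members was -3.74 loci in place of -98.1. Both type and silence varied with position in the window. In the 1 Mb just before the middle, 84.9% of the loci are pseudogenes and 23.0% had a read, while 3 to 4 Mb after the middle 6.21% are pseudogenes and 74.7% had a read.

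**Figure D1:**
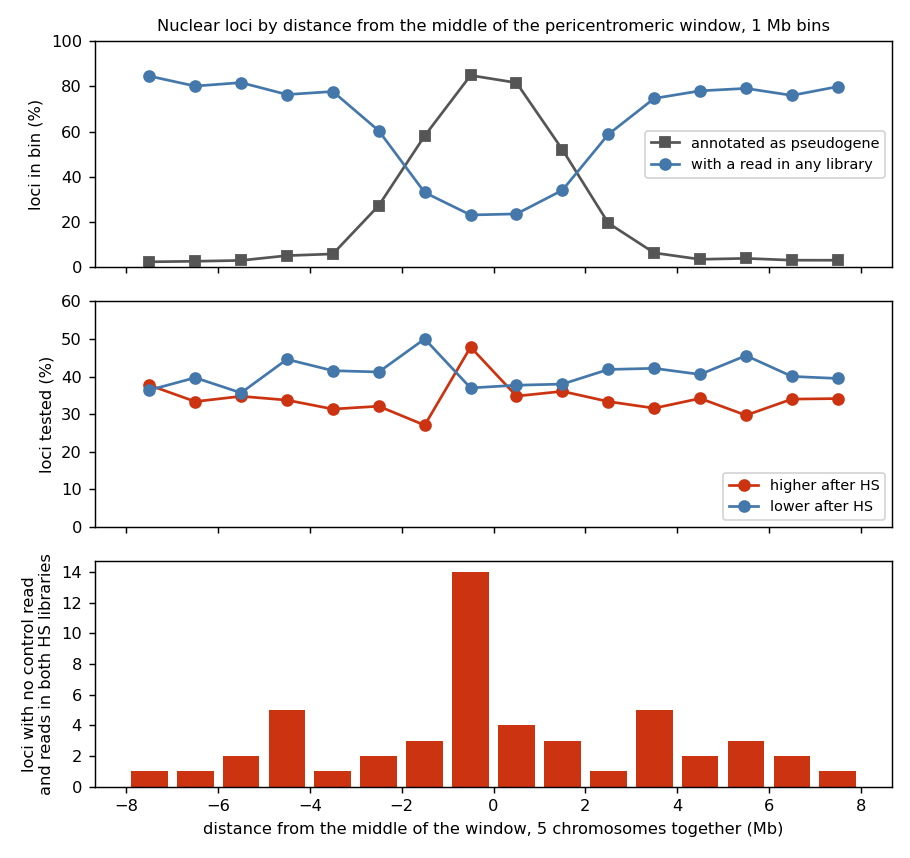
Nuclear loci in 1 Mb bins of distance (Mb) from the middle of each chromosome's window, 5 chromosomes together: percent annotated as pseudogene and percent with a read (top), percent of tested loci higher or lower after HS (middle) and number of loci with no control read and at least 5 reads in each HS library (bottom). Pseudogenes peak and reads are scarcest at the middle. The bin from -1 to 0 Mb holds 14 of the loci with HS reads and no control read, while its tested loci number 46.

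As a share of all nuclear reads, the pericentromeric loci took 10.2 and 10.4% in control, 9.22 and 9.35% in HS, and 10.3 and 10.3% in recovery. The HS libraries lie below the others, and the HS mean is 0.901 times the control mean. With 2 libraries against 2, the smallest p that an exact two-sided permutation test can give is 0.333, which is the value obtained here. A few genes held much of this share. A group of 15 photosynthesis and photorespiration genes took 30.7 and 35.0% of the pericentromeric reads in control, 28.5 and 28.2% in HS, and 30.4 and 30.7% in recovery. Without these genes the share was 7.06 and 6.78% in control, 6.59 and 6.72% in HS, and 7.20 and 7.15% in recovery, an HS to control ratio of 0.962. Without HSP17.4, the heat shock gene with the most HS reads, it was 10.2 and 10.4% in control and 8.33 and 8.30% in HS, a ratio of 0.807. The 5 loci with the most reads in each library held 19.1 and 20.5% of the pericentromeric reads in control and 27.9 and 29.5% in HS.

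The windows differed from each other. The HS to control ratio of the share was 0.847 on chromosome 1, 0.665 on chromosome 2, 1.34 on chromosome 3, 0.713 on chromosome 4 and 0.940 on chromosome 5. On chromosome 3 lie the heat shock genes HSP17.4 and J3. Without these genes its share in HS was below that in control, with 1.66 and 1.57% in control, 0.881 and 0.925% in HS, and 1.51 and 1.48% in recovery. The inner loci had a ratio of 0.765, and the outer loci, which include HSP17.4, one of 0.934. The outer ratio without HSP17.4 was not computed, while that of all pericentromeric loci without it was 0.807. The contrast of inner and outer loci therefore cannot be read as one of position.

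Pseudogenes made up little of this RNA. As a share of nuclear reads, without TMM scaling, the range of their sum overlapped between control and HS. They held 0.0798 and 0.0741% of nuclear reads in control, 0.0789 and 0.0799% in HS, and 0.0844 and 0.0818% in recovery, so the control and HS libraries overlap. Pseudogenes elsewhere in the nucleus went from 0.0463 and 0.0475% in control to 0.220 and 0.221% in HS, a ratio of 4.71. *ONSEN* copies outside the windows accounted for 80.5 and 80.4% of the latter HS reads. The makeup of the pericentromeric sum differed between the conditions. The loci AT2G15810, AT3G32415 and AT1G36630 held 0.365 and 0.326% of pericentromeric pseudogene reads in control, 43.3 and 43.5% in HS, and 0.592 and 0.450% in recovery. Conversely, the LINE locus AT2G11240 held 27.5 and 27.4% in control, 3.04 and 2.96% in HS, and 26.2 and 25.3% in recovery. Without the first 3 loci, the log2 ratio of HS to control was -0.77 in place of 0.04. These loci were picked for their HS reads, so a lower ratio was fixed in advance. The ratio without AT2G11240 was not computed. With all loci and windows 1 Mb wider on each side the ratio was 0.62, and 1 Mb narrower -0.20.

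**Figure D2:**
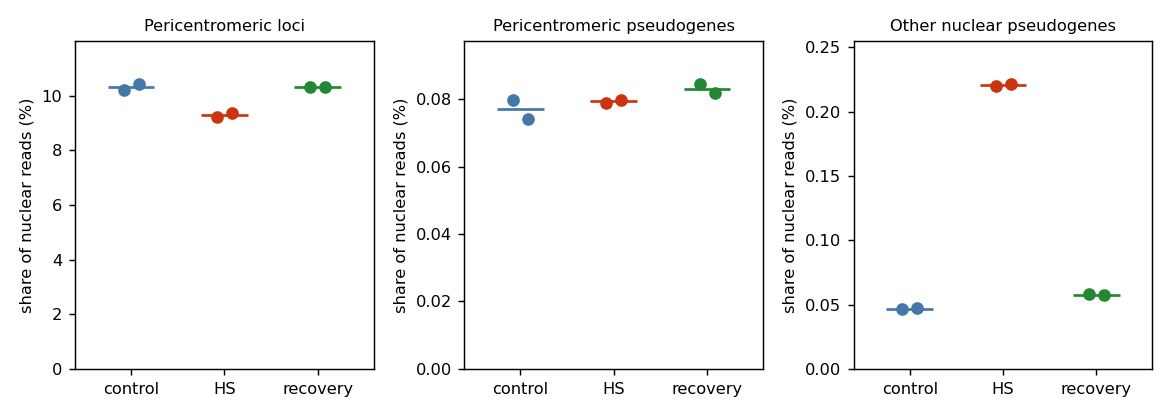
Share of nuclear reads (%, axes from 0) in pericentromeric loci, in pericentromeric pseudogenes and in all other nuclear pseudogenes, with 1 point per library and the mean of 2 as a line. Pericentromeric loci held 10.2 and 10.4% in control and 9.22 and 9.35% in HS, and pseudogenes outside the windows stand higher in HS, while the points of those inside overlap.

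The question of HS against control was put to every tested locus with edgeR, with the 6 libraries in one fit and p-values adjusted over all 18536 loci. Of the 1585 pericentromeric loci, 490 (30.9%) rose, against 34.9% of all loci tested, and 697 (44.0%) fell, against 39.5%. All 490 and 696 of the 697 had libraries that did not overlap between the conditions. The calls rest on these same libraries, and no such count was made over all loci, so this adds no weight. Changes of at least 2-fold were found at 285 loci (18.0%) upwards and 527 (33.2%) downwards, against 21.6 and 29.3% of all loci tested. The median log2 fold change was -0.29, against -0.12 in the other nuclear loci, of which 34.9% rose and 39.3% fell. No test of this difference was run, and with no filter on low counts it was -0.0071 in place of -0.17. Scaled to library totals, 241 pericentromeric loci rose and 1030 fell, so the direction of small changes rests on the scaling.

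Protein-coding loci made up most of these calls, with 448 up and 645 down of 1470 (median -0.29, against -0.11 for other protein-coding loci). The balance differed with expression level in both sets, where level is the mean CPM over all 6 libraries, HS included. A change after HS thus moves a locus towards a higher or lower level, so the classes themselves can shape part of this trend. Below a mean of 0 log2 CPM, 10.3% of pericentromeric protein-coding loci rose and 60.3% fell, against 12.9 and 48.1% elsewhere. Above 6 log2 CPM, 55.0% rose and 25% fell, against 64.3 and 18.6% elsewhere. At all 4 levels the pericentromeric loci had fewer increases and more decreases than the loci outside. By chromosome, increases and decreases numbered 121 and 140 of 348 loci on chromosome 1, 81 and 117 of 277 on chromosome 2, 89 and 160 of 331 on chromosome 3, 72 and 99 of 225 on chromosome 4, and 127 and 181 of 404 on chromosome 5. The median was lowest on chromosome 3 (-0.52) and highest on chromosome 1 (-0.09). Inner loci had 101 increases and 105 decreases of 267 (median -0.05), and outer loci 389 and 592 of 1318 (median -0.35).

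Tested pseudogenes split into opposite groups. Of 90, 38 (42.2%) rose and 40 (44.4%) fell, against 34.9 and 39.5% of all loci tested and 40.3 and 34.3% of the 67 tested pseudogenes elsewhere, with quartiles of the log2 fold change at -2.49 and 5.80. Of the 45 inner pseudogenes, 25 rose and 16 fell (median 1.08), and of the 45 outer ones 13 rose and 24 fell (median -0.98). Among the 38 that rose, 22 had at most 3 reads in both control libraries together, while 12 had over 100. Loci silent in control can enter the test through their HS reads alone. The share that rose and the contrast of inner and outer pseudogenes therefore carry no weight. Among the 40 that fell, 12 had at most 3 reads in both HS libraries together. Genes that maintain heterochromatin silencing lie outside the windows, and of 25 listed 6 rose and 14 fell after HS (median -0.69), against 34.9 and 39.5% of all loci tested, and 4 were higher in recovery than in control, against 1.34%. Their part in the changes at TE genes was not tested.

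**Figure D3:**
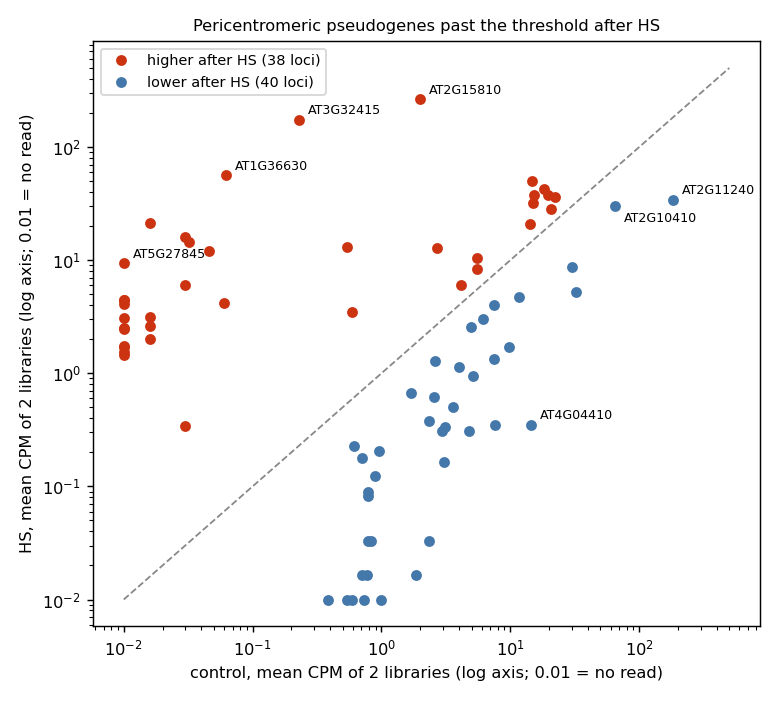
Mean CPM of 2 control libraries against mean CPM of 2 HS libraries (both axes log, 0.01 stands for no read) for the 78 pericentromeric pseudogenes past the threshold, with equal levels dashed. The 38 that rose form a group near the left edge, with few or no control reads, and a group between 1 and 100 CPM close to the dashed line, while AT2G15810, AT3G32415 and AT1G36630 stand highest in HS.

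A set of loci had HS reads and no control read. At least 5 reads in each HS library and no control read were found at 28 of the 2720 pericentromeric loci with a read (1.03%), against 0.362% of all nuclear loci with a read. They comprise 23 pseudogenes and 5 protein-coding loci, of which 22 are inner and 6 outer. Outside the windows 52 of 21236 loci (0.245%) met this rule, and all 52 are protein coding. Of pseudogenes with a read, 23 of 638 (3.61%) met it inside the windows and 0 of 196 outside. Their reads ran from 5 to 70 in HS replicate 1 (median 8) and from 6 to 257 in HS replicate 2 (median 45.5). In recovery, 23 of the 28 had no read, and no other had more than 3 in both libraries together. The number depends on the reads asked for, with 44 loci at a minimum of 3 reads and 11 at a minimum of 10, and 21 met the rule on reads thinned to the smallest library.

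AT5G27845, a LINE locus on chromosome 5 (9868348 to 9871836), had 0 and 0 reads in control, 70 and 257 in HS, and 1 and 0 in recovery. Measured against a floor of 3 reads over the control group, it was at least 140-fold higher in HS. The neighbour AT5G27850, 1315 bp away on the same strand, had 5089 and 21695 HS reads and rose by 1.67 on the log2 scale (edgeR adjusted p = 0.00059). TOPP8, the neighbour on the other side at 3309 bp, did not pass (-0.28). Whether reads at AT5G27845 stem from a neighbour was not tested. AT1G33500, which RefSeq names tropomyosin and lists as protein coding, had 0 and 0 reads in control, 47 and 199 in HS, and 1 and 2 in recovery, at least 105-fold higher. AT4G04530 had 0 and 0 reads in control, 28 and 123 in HS, and 0 and 0 in recovery, at least 64.6-fold higher. AT3G42245 had 0 and 0, 18 and 108, and 0 and 0, at least 53.9-fold higher. The libraries of HS and control do not overlap at any of these loci, and the HS replicates are close in CPM (10.2 and 8.45 in HS for AT5G27845). AT1G38260 and AT1G38330 share identical counts of 0 and 0, 27 and 152, and 0 and 0, and their 4036 bases have no mismatch, so these reads cannot be assigned to either. They stand as 2 loci in the counts given here. Taken as 1 they leave 27 loci with HS reads and no control read, 22 of them pseudogenes, and 37 pseudogenes that rose.

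**Figure D4:**
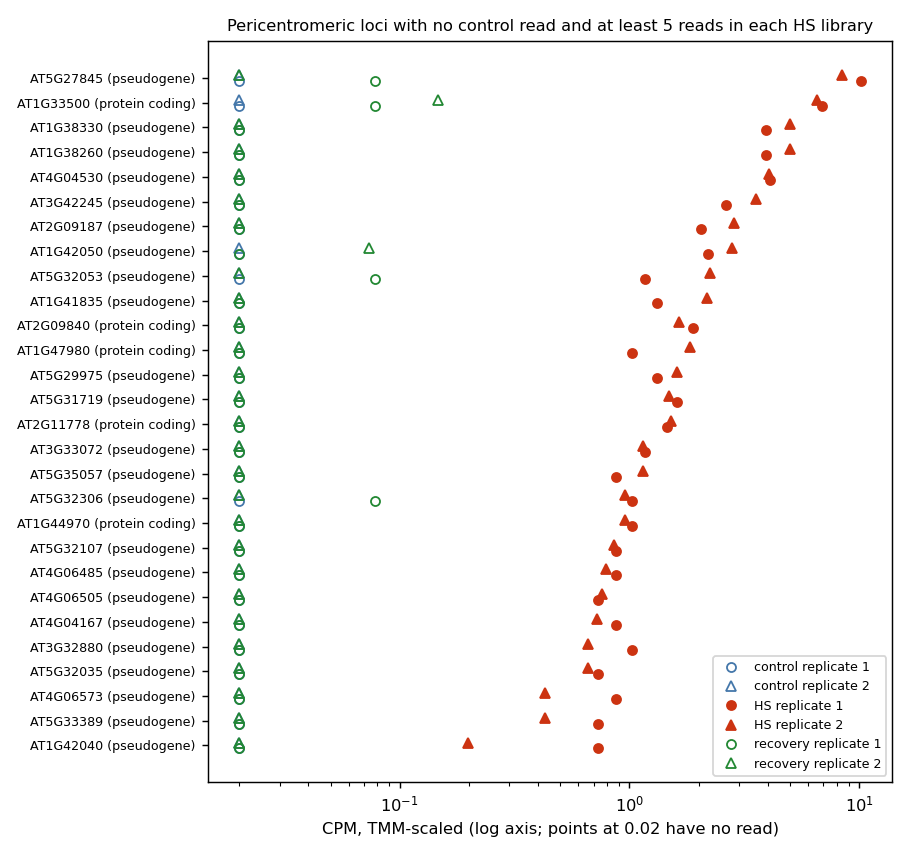
CPM in each of the 6 libraries (log axis, points at 0.02 have no read) at the 28 pericentromeric loci with no control read and at least 5 reads in each HS library, ordered by HS reads, with the annotated type in parentheses. HS points lie between 0.197 and 10.2 CPM, control points are all at the no-read mark, and 5 loci have a recovery read.

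Sequence bears on how firmly single copies can be named. For each locus, the share of its 100-base stretches that occur again elsewhere in the nuclear genome was computed, since a read of that length from such a stretch has several origins. Only exact matches were counted. Reads trimmed to a shorter length, or copies that differ by a few bases, are not covered, so a locus with none may still share reads. Over the 28 loci the median was 2.54%, 9 had none and 6 had over 50%. AT5G27845, AT1G33500 and AT4G04530 had none. AT5G31719 (81.5%) and AT5G32107 (67.9%), whose start windows are printed above, are among the 6, so their 11 and 45 and their 6 and 26 HS reads may be shared. Of the 378 pairs of start windows among the 28 loci, 5 pairs had at least 80% of bases in common. AT4G06505 and AT5G32035 on different chromosomes shared 94.0%, and AT5G35057 shared 83.3% with the AT1G38260 pair. TE families are known here from the study's list of TEs that changed with heat, which was drawn from these same libraries, so shares of families carry no weight. By that list 16 of the 28 loci overlap *Athila* copies. Of the 28, 22 had a neighbour within 2000 bp, and at 7, AT5G27845 among them, such a neighbour rose after HS. Part of these neighbours belong to the same set, such as AT5G32035 and AT5G32053, or AT1G42040 and AT1G42050. No such count was made for other loci, so the 22 and the 7 carry no weight on their own.

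The pseudogenes with the most HS reads had traces of RNA in control. AT2G15810 (chromosome 2, 6882821 to 6886775) had 1.99 and 1.99 CPM in control, 258 and 275 in HS, and 2.41 and 1.70 in recovery, a log2 fold change of 7.06 (SE 0.17, adjusted p = 3.3e-07) after HS. AT3G32415, the only *ONSEN* copy inside the windows (chromosome 3, 13369797 to 13373676), had 0.362 and 0.0961 CPM in control, 170 and 180 in HS, and 0.777 and 0.516 in recovery, a log2 fold change of 9.79 (SE 0.29, adjusted p = 4.4e-07). Its 100-base stretches recur elsewhere at 21.4%, and the 6 tested *ONSEN* loci outside rose by 8.74 to 9.72 on the log2 scale. AT1G36630, at an *EnSpm* DNA transposon (chromosome 1, 13840145 to 13847625), had 1 and 2 reads in control, 355 and 1829 in HS, and 10 and 10 in recovery. By depth, this is a ratio of 935 between HS and control, with a 95% counting interval of 319 to 4536. AT2G11780 on chromosome 2 had 0 and 1 reads in control, 140 and 683 in HS, and 2 and 1 in recovery, a ratio of 1057 with an interval of 189 to 41783. None of the 100-base stretches of AT2G15810, AT1G36630 or AT2G11780 recurs elsewhere. Intervals and floors cover counting error only.

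Other TE genes had RNA in control and fell after HS. AT2G11240, the LINE locus above, had 182 and 181 CPM in control, 33.6 and 35.0 in HS, and 176 and 166 in recovery, and fell by 2.40 on the log2 scale (SE 0.11, adjusted p = 1.3e-06). AT2G10410, a member of the *SADHU* retroposons, had 55.6 and 73.1 CPM in control, 29.4 and 30.9 in HS, and 59.9 and 64.6 in recovery, a log2 fold change of -1.09 (SE 0.15, adjusted p = 0.00029). At both loci the HS libraries lie below the other 4. The 3 largest decreases had no HS read. AT2G12460 had 19 and 26 reads in control and 6 and 14 in recovery, and was at least 11.7-fold lower in HS. AT5G28335 had 10 and 27 reads in control and 11 and 7 in recovery, at least 9.61-fold lower. AT2G12440, a LINE locus, had 9 and 20 in control and 10 and 9 in recovery, at least 7.53-fold lower. By the rule turned round, 34 pericentromeric loci (1.25%) had no HS read and at least 5 in each control library, against 0.595% of all nuclear loci with a read, and 23 of them are protein coding.

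Protein-folding genes of the windows mostly rose. Of the 5 on the list, 4 rose and 1 fell (median log2 fold change 4.34, where that of all loci tested is -0.12). Over all loci tested 34.9% rose and 39.5% fell, against which this and the following lists stand. HSP17.4, a cytosolic small heat shock protein (AT3G46230, chromosome 3, 16984118 to 16984841), had 301 and 8 reads in control, 85114 and 474711 in HS, and 72 and 97 in recovery. In CPM these are 18.2 and 0.256, 12446 and 15617, and 5.60 and 7.15. The log2 fold change was 10.65 (SE 1.54, adjusted p = 0.0004), and control replicate 1 stands apart from replicate 2, but the HS libraries lie far above all others. J3, a DnaJ co-chaperone of HSP70, had 134 and 135 CPM in control, 4510.1 and 4758 in HS, and 131 and 134 in recovery (log2 fold change 5.11, SE 0.16, adjusted p = 4.8e-07). BIP1, the HSP70 of the endoplasmic reticulum, had 102 and 132 CPM in control, 2342 and 2397 in HS, and 166 and 165 in recovery (4.34, SE 0.18, adjusted p = 9e-07). HSP90.5, the plastid HSP90, rose by 4.22 on the log2 scale. BZIP60, a transcription factor of the unfolded protein response, had 50.1 and 35.5 CPM in control and 29.2 and 29.3 in HS (-0.54, adjusted p = 0.019), and its adjusted p without HS replicate 1 or 2 was 0.089 or 0.10.

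Other large increases lay outside this list. AT5G35320, which RefSeq describes as DBH-like monooxygenase, had 6.51 and 6.12 CPM in control, 333 and 349 in HS, and 9.09 and 7.89 in recovery, a log2 fold change of 5.76 (SE 0.14, adjusted p = 3.3e-07). AT5G37670, an HSP20-like chaperone, had 1.69 and 1.06, 58.9 and 80.3, and 2.41 and 3.39 CPM in the same order (5.74, SE 0.27, adjusted p = 1.5e-06). At both loci, recovery lies close to control. AT3G41762, an uncharacterized locus on chromosome 3, had 0.482 and 0.512 CPM in control and 38.2 and 53.6 in HS (6.51, SE 0.25), but 59.4% of its 100-base stretches recur elsewhere and it overlaps the locus AT3G41761.

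Photosynthesis and photorespiration genes gave 7 increases and 5 decreases among 15 (median 0.32), near the shares of 34.9 and 39.5% over all loci tested. FIB, a fibrillin of plastid lipid bodies and thylakoids, had 104 and 139 CPM in control, 2057 and 2118 in HS, and 79.4 and 82.3 in recovery (log2 fold change 4.10, SE 0.18, adjusted p = 1.2e-06). The neighbouring RBCS genes for the small subunit of Rubisco rose together. RBCS3B, the locus with the highest control CPM in the windows, had 6630.3 and 8160.2 CPM in control, 12047 and 12677 in HS, and 5925 and 6273 in recovery (0.74, SE 0.19, adjusted p = 0.0075). RBCS2B rose by 0.83 and RBCS1B by 0.64 on the log2 scale, and GAPB, a subunit of the Calvin cycle enzyme GAPDH, by 0.59. Genes of ATP synthesis and light capture were among the decreases. ATPD, the delta subunit of the plastid ATP synthase, had 931 and 1145 CPM in control, 394 and 435 in HS, and 795 and 783 in recovery (-1.32, SE 0.15, adjusted p = 9.7e-05). LHCB2.1, an antenna protein of photosystem II with a near-identical neighbour LHCB2.2, had 2105 and 2676, 1304 and 1429, and 2130.1 and 2092 CPM (-0.81, adjusted p = 0.0026). CAO, which makes chlorophyll b, also fell by 0.81, and PSBQ-2, a subunit of the oxygen-evolving complex, by 0.80. These increases below 1 on the log2 scale depend on the centre: with library totals none of the RBCS genes passed, and GAPB (-0.15) and RBCS1B (-0.10) turned negative. GAPB did not pass without HS replicate 1 or 2 (adjusted p = 0.066 or 0.093) or without either recovery replicate (adjusted p = 0.056 each), or with at least 10 reads in every library (0.052), nor RBCS1B without HS replicate 2 (0.085).

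**Figure D5:**
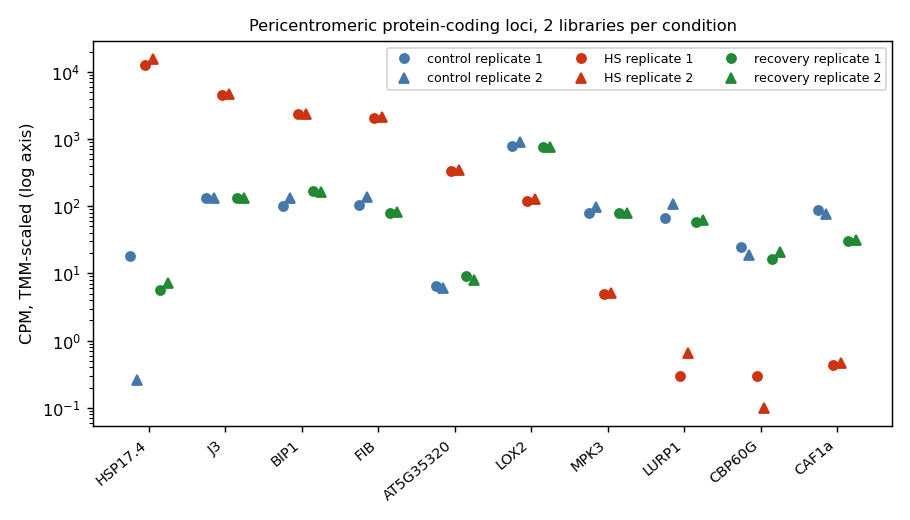
CPM in each library (log axis) of 10 pericentromeric protein-coding genes, 5 that rose and 5 that fell after HS, with the 2 libraries of a condition side by side. HS points stand apart from control and recovery at each gene, and the control libraries of HSP17.4 (18.2 and 0.256 CPM) lie far from each other.

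Stress and hormone signalling genes gave 9 decreases and 2 increases among 14 (median -1.27). MPK3, a mitogen-activated protein kinase of immune signalling, had 78.0 and 96.8 CPM in control, 4.97 and 5.07 in HS, and 79.2 and 79.8 in recovery (log2 fold change -4.12, SE 0.16, adjusted p = 7.2e-07). LOX2, a lipoxygenase of jasmonate synthesis, had 799 and 912 CPM in control, 118 and 127 in HS, and 749 and 773 in recovery (-2.80, SE 0.14, adjusted p = 1.7e-06). ABF2, a transcription factor of abscisic acid responses, fell by 2.78 on the log2 scale. RD21, a cysteine protease, rose by 0.81 (adjusted p = 0.00043). RCD1, a regulator of oxidative stress responses, had 139 and 170 CPM in control and 208 and 210 in HS (0.44, adjusted p = 0.013), but did not pass without HS replicate 1 (adjusted p = 0.066) or 2 (0.081), or with at least 10 reads in every library (0.10). With library totals RD21 did not pass (0.06, adjusted p = 0.60), and RCD1 passed in the opposite direction (-0.30, adjusted p = 0.028).

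Among loci with a mean of at least 10 CPM and libraries apart, the 5 largest decreases were those of the following genes. CAF1a, a deadenylase that shortens poly(A) tails, had 87.1 and 76.8 CPM in control, 0.439 and 0.461 in HS, and 30.0 and 31.1 in recovery (log2 fold change -7.47, SE 0.18, adjusted p = 3.3e-07). CBP60G, a calmodulin-binding activator of salicylic acid synthesis, had 24.9 and 18.7 CPM in control, 0.292 and 0.0987 in HS, and 16.5 and 20.6 in recovery (-7.25, SE 0.38, adjusted p = 2.3e-06). LURP1, a gene of basal defence, had 66.5 and 108, 0.292 and 0.658, and 58.5 and 61.7 CPM (-7.22, SE 0.36, adjusted p = 1.8e-06). At these 3 genes the HS libraries lie below all others by a wide margin. CRK4, a cysteine-rich receptor-like kinase, fell by 5.46, and the identical copies AT3G28290 and AT3G28300 (AT14A) by 4.90 on the log2 scale.

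Smaller groups gave mixed calls. Of 5 nitrogen and housekeeping genes, 4 rose and 1 fell (median 0.66). DDB1A, an adaptor of CUL4 ubiquitin ligases, had 41.5 and 45.7 CPM in control, 205 and 208 in HS, and 55.0 and 54.0 in recovery (log2 fold change 2.24, SE 0.11, adjusted p = 1.6e-06). UBQ10, a polyubiquitin gene, rose by 0.90, and CAM1, a calmodulin, by 0.66, but UBQ10 did not pass with library totals (0.17) and CAM1 turned negative (-0.08). GLN1;1, a cytosolic glutamine synthetase, had 164 and 243 CPM in control and 30.7 and 33.4 in HS (-2.66, adjusted p = 1e-05). Of 7 light, clock, hormone and development genes, 2 rose and 3 fell (median -0.03). RVE2, a clock-related MYB factor, rose by 2.05, and BR6OX2, an enzyme of brassinosteroid synthesis, had 10.6 and 13.9 CPM in control and 2.05 and 1.12 in HS (-3.17, adjusted p = 3e-05). CAS1, an enzyme of sterol synthesis, fell by 1.32. XTH4, which remodels cell wall xyloglucan, and the blue light receptor CRY1 passed with 0.34 and -0.44, but XTH4 had an adjusted p of 0.067 without HS replicate 1, 0.25 without HS replicate 2 and 0.098 and 0.097 without recovery replicates 1 and 2, and CRY1 had 0.17, 0.088, 0.060 and 0.060. CRY1 also missed the threshold with DESeq2 (0.054) and with its size factors in edgeR (0.056), and XTH4 with a replicate block (0.059), with no filter on low counts (0.071) and with at least 10 reads in every library (0.35). With library totals XTH4 passed in the opposite direction (-0.41, adjusted p = 0.023). Of 5 myrosinases and nitrilases, 2 rose and 1 fell (median 0.26): NIT1 had 795 and 798 CPM in control and 1165 and 1209 in HS (0.58, adjusted p = 0.003), TGG2, a myrosinase that releases mustard oils from glucosinolates, rose by 0.72 and NIT3 fell by 1.51. NIT1 and TGG2 turned negative with library totals (-0.17 and -0.01), and TGG2 had an adjusted p of 0.056 without HS replicate 1 and 0.073 without replicate 2.

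Whether the changes lasted was asked by setting recovery against control and against HS. Against control, 22 of the 1585 pericentromeric loci were higher (1.34% of all loci tested were) and 16 were lower (0.766% of all loci tested were), and 226 and 121 of the 16776 other nuclear loci. The median log2 fold change was -0.02. Against HS, 687 pericentromeric loci (43.3%) were higher in recovery, against 39.2% of all loci tested, and 471 (29.7%) were lower, against 34.1%. Of the 490 loci that rose after HS, 426 (86.9%) were lower in recovery than in HS, and 13 passed as higher than control. Of the 697 that fell, 629 (90.2%) were higher in recovery than in HS, and 11 passed as lower than control. For the other nuclear loci the shares were 89.5 and 90.1%. Of the 38 pseudogenes that rose, 34 (89.5%) were lower in recovery than in HS. The HS libraries that picked these loci also enter the comparison with recovery, so part of the return can stem from that choice. No pericentromeric locus had at least 5 reads in each recovery library and none in control (0.0125% of nuclear loci with a read), and 1 had at least 5 in each control library and none in recovery (0.025%). The 22 and 16 calls depended on the libraries in the fit. In edgeR none remained without any 1 HS or recovery library, while 243 and 262 loci passed without control replicate 1 and 263 and 357 without control replicate 2. Without an HS or a recovery library, 83 to 135 loci were higher and 80 to 151 lower at an unadjusted p under 0.05, and DESeq2 on the 6 libraries called 36 and 40.

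Of the pseudogenes, 3 were higher in recovery than in control. AT1G36630, described above for HS, had 0.0603 and 0.0641 CPM in control and 0.777 and 0.737 in recovery (log2 fold change 3.46, SE 0.45, adjusted p = 0.028), well below its HS level. AT2G06950 on chromosome 2 had 23.9 and 13.0 CPM in control, 13.6 and 16.3 in HS, and 47.6 and 45.3 in recovery (1.35, SE 0.26, adjusted p = 0.045), so that recovery alone stands out. AT5G35935, a *Copia* locus, had 1 and 0 reads in control, 2 and 12 in HS, and 20 and 15 in recovery. Among protein-coding loci, NIT2, a nitrilase, had 4.46 and 11.1 CPM in control, 8.33 and 7.30 in HS, and 28.8 and 28.2 in recovery (1.83, SE 0.34, adjusted p = 0.043). TGG2 had 656 and 995, 1338 and 1381, and 1779.6 and 1718 CPM (1.08, SE 0.20, adjusted p = 0.044). AT2G06950, NIT2, TGG2 and 5 more, AT5G27330 (1.17), AT4G09160 (1.13), AT5G26850 (0.74), LON1 (0.64) and DAYSLEEPER (0.62), were the largest increases with a mean of at least 10 CPM. LON1, a mitochondrial protease, and DAYSLEEPER, a domesticated transposase, differed in HS: LON1 had a mean of 18.2 CPM in control, 149 and 147 in HS, and 29.1 and 27.6 in recovery, and DAYSLEEPER had 22.1 and 24.4, 27.3 and 24.6, and 35.4 and 36.1. The largest decrease was that of CAF1a (-1.42, SE 0.11, adjusted p = 0.01), which stood at 30.0 and 31.1 CPM. RDUF1, a RING ubiquitin ligase, was lower by 1.24, LTP, a lipid transfer protein, by 1.23, DEG14, a protease, by 1.05 and XTH31 by 0.92 on the log2 scale. All of these calls were lost without any 1 HS or recovery library, and 9 of the 15 named were lost with the replicate number as a block.

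The start windows of the members were searched for GAANNTTC or TTCNNGAA, of which the former and the latter are each their own reverse complement, so both strands are covered, and overlapping matches count. A match was present in 6110 of 31911 nuclear windows (19.1%) and in 19.9% of those of pericentromeric loci. Of the protein-coding loci of the windows, 91 of 448 (20.3%) that rose after HS and 142 of 645 (22.0%) that fell held it. Among those that rose over 4-fold it was 21 of 86 (24.4%), against 26.1% for such loci outside. A run of 3 units, as in HSP17.4, was present in 0.464% of all windows and in 3 of these 86 (3.49%), against 35 of 1235 (2.83%) for such loci outside. Pseudogenes held a match in 5 of 38 (13.2%) that rose and in 13 of 40 (32.5%) that fell. The loci with HS reads and no control read held it in 5 of 28 (17.9%). The annotated start of a TE gene need not be where its transcript begins, so for these loci the window is a fixed distance from an annotation. No match lay in the window of the *ONSEN* copy AT3G32415, which rose. The paper reports putative heat-responsive elements in the LTRs of heat-responsive *ONSEN* copies. A window without a match thus does not show that a TE lacks such an element. A match is a stretch of letters and not a measured binding site.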

How the data were processed

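Total RNA of *A. thaliana* Col-0 rosette leaves was sequenced as strand non-specific, single-end libraries, 2 for each of 3 conditions. According to the study's methods, reads were trimmed, aligned to TAIR10 with TopHat and counted per gene with Qualimap. How reads with several origins were counted is not given in the sources used here. The values used are the read counts per gene deposited by the authors, and the table's 6 RPKM columns were not used. Nothing states that replicates came from separate plants, so p-values measure only the spread between these libraries.

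Counts were fitted with edgeR 4.0.16 (quasi-likelihood test, TMM) in R 4.3.3, with all 6 libraries, after filterByExpr (minimum count 10, minimum total 15), which left 18536 loci, and called at a Benjamini-Hochberg adjusted p under 0.05. DESeq2 1.42.0 was an alternative. Shares, read ratios with exact 95% intervals and exact permutation tests were computed with SciPy 1.17.1 in Python 3.11.15. Reads were thinned to 9624503 for detection. In simulated HS against control counts for 18184 genes, edgeR recovered 47 of 50 genes changed 2-fold upwards and 40 of 50 changed 0.5-fold, with 7 false calls. The changed genes were few, balanced in direction and not near the floor, and library makeup did not shift. These rates therefore need not hold for loci with few reads or for a change as wide as that after HS.

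Types, names and sequences came from RefSeq (TAIR10.1), which matched 98.1% of the pericentromeric loci, and 99.8% of matched nuclear starts lay within 2000 bp of the table's. Coordinates are those of the table unless a start window is given. Named loci were, for each comparison, the 8 largest increases and 5 largest decreases with a mean of at least 10 CPM and libraries apart, the 6 and 3 largest among pseudogenes, the 6 loci with most HS reads and no control read, up to 3 each way per gene list, the 5 most expressed in control and *ONSEN* copies. HSP90.5, LHCB2.2, AT2G11240, AT2G10410, AT5G31719 and AT5G32107 and neighbours were named after their values were seen. Members, lists and this rule were chosen with earlier results of these data known.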

Additional observations from a re-analysis of the deposited data

How the results depend on the processing

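With library totals in place of TMM, 241 pericentromeric loci rose after HS, 68 were higher in recovery than in control, and 1081 were higher and 208 lower in recovery than in HS. Under these totals RCD1 (AT1G32230, -0.30), GAPB (AT1G42970, -0.15), XTH4 (AT2G06850, -0.41), NIT1 (AT3G44310, -0.17), TGG2 (AT5G25980, -0.014), CAM1 (AT5G37780, -0.083) and RBCS1B (AT5G38430, -0.10) reversed. The windows set the number of loci: 1 Mb narrower on each side gave 201 up and 229 down after HS, 9 and 3 in recovery against control, and 236 and 187 in recovery against HS, and 1 Mb wider gave 1015 and 1352, 45 and 27, and 1325 and 982. For recovery against control, no filter gave 79 up and 82 down and DESeq2 36 and 40.

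Leaving out 1 library at a time gave 358 to 570 up and 562 to 751 down after HS, and 0 to 263 up and 0 to 357 down in recovery against control in edgeR. A replicate block gave 7 up and 5 down in recovery against control, where 9 of 15 named calls were lost, and 481 and 678 after HS, where 1 of 51 was lost. Replicate numbers did not pair the libraries (r from -0.05 to 0.03), so the block is not a paired test.

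The log2 ratio of the share of reads, HS to control, was -0.15 and became -0.24 with narrower windows and -0.31 without HSP17.4 and -0.056 without the photosynthesis list, which took that of recovery from 0.00 to 0.052. For pseudogenes it was 0.04 and became -0.20 with narrower windows, 0.62 with wider ones and -0.77 without AT2G15810, AT3G32415 and AT1G36630. These 3 loci were picked for their HS reads, so that this last fall was fixed in advance. Loci with HS reads and no control read numbered 44 at 3 reads and 11 at 10. The loci detected differed by -98.1 between HS and control, by -173 at 5 reads, by -50.5 without thinning, and by -3.74 and -197 with narrower and wider windows. The difference in median log2 fold change to other nuclear loci was -0.17 after HS, -0.0071 with no filter and -0.16 with at least 10 reads in every library or with DESeq2, and -0.22 to -0.16 leaving out 1 library. In recovery it was -0.02, 0.00 with no filter, and -0.030 to -0.0066 leaving out 1 library. The variants without the photosynthesis list, HSP17.4 or the 3 loci, and those of the medians, were chosen after seeing the data. The causes were not tested.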
